A study of Homo sapiens with 6 samples.

Results

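The genes described here build the mitotic spindle, attach chromosomes to it, hold back anaphase until they are attached, and then divide the cell. A total of 56 genes was taken by symbol from the deposited table of 61280 rows: chromosomal passenger, checkpoint, kinetochore, anaphase-promoting and cytokinesis genes, without the kinesins. Each symbol occurred on 1 row, and all 56 passed the filter for testing (1 TPM or more in 3 or more of the 6 libraries), as did 14621 rows in all. TPM is a transcript's abundance corrected for its length and scaled to a fixed total per library, so levels can be set side by side between genes, and each value is relative to everything else measured in that library. The cells were MDA-MB-231, an established human breast cancer line of mesenchymal character without oestrogen receptor. Control cells were left untreated, and the irradiated cells had received 20 Gy of X-rays with 24 h of culture afterwards, with 3 libraries in each group. A culture time for the controls is not given in the labels, and nothing states that the numbered replicates were separate cultures, so the p-values measure the spread between these libraries, which may be technical.

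In mitosis, Aurora kinases and microtubule-binding proteins shape a bipolar spindle, and kinetochores assembled on CENP-A chromatin capture its microtubules. Unattached kinetochores signal through BUB and MAD proteins, which hold CDC20, the activator of the anaphase-promoting complex, inactive. Once released, that ubiquitin ligase destroys securin and cyclin B, separase cuts cohesin, and the midzone and contractile ring complete cytokinesis. Most of these genes are transcribed in the G2 phase and in mitosis, under the DREAM and MuvB complexes with B-MYB and FOXM1, so their transcripts are widely used as markers of cycling cells. Irradiated cells are known to pause before mitosis at the G2 checkpoint.

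Defining markers of the labelled line were present. VIM ran from 1583 to 2011 TPM and CD44 from 186 to 268 TPM over the 6 libraries, PGR was listed at 0 in all 6, and ESR1 did not exceed 0.39 TPM. Of the luminal markers, KRT19 was present at 151 to 168 TPM and ERBB2 at 20.9 to 27.9 TPM. Of the leukocyte markers, MS4A1 was listed at 0 in every library and CD3E, LYZ and NKG7 did not exceed 0.11 TPM, while CD68, a lysosomal protein gene that is not restricted to leukocytes, had 59.0 to 97.3 TPM. PTPRC stood at 40.4 TPM in irradiated replicate 1 and at 0.11 to 0.45 TPM in the other 5 libraries. The summed leukocyte list was 60.0 to 67.5 TPM in the control and 95.5 to 133 TPM in the irradiated libraries. Most of each sum was CD68, which was called higher after irradiation (log2 change 0.58, adjusted p = 0.00391 in limma). The part of this list in the results below was not tested.

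1 library stood apart over the whole set. Irradiated replicate 2 was the lowest of the 6 libraries for 30 of the 56 members (53.6%, beside 33.5% of all tested genes), and below the mean of the other irradiated libraries for 49. The median deviation of the members from the control means was -0.15 in it, against -0.02 and 0.01 in irradiated replicates 1 and 3 and -0.02 to 0.01 in the controls. The shortfall went with both the length and the GC content of transcripts. Across the 56 members, its log2 difference from the mean of replicates 1 and 3 had Pearson's r = -0.55 and Spearman's rho = -0.52 with log2 transcript length, as against r = 0.27 and rho = 0.28 for control replicate 2. With GC content it had r = 0.45 and rho = 0.48 over the same 56. These are descriptions across genes that share libraries. Over 14244 tested genes the values for irradiated replicate 2 were r = -0.21 and rho = -0.36 with length and r = 0.20 and rho = 0.32 with GC content. Without it, the members' median log2 change was 0.01, that of all tested genes 0.06 and 26 members in place of 35 had a change below 0.

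**Figure D1:**
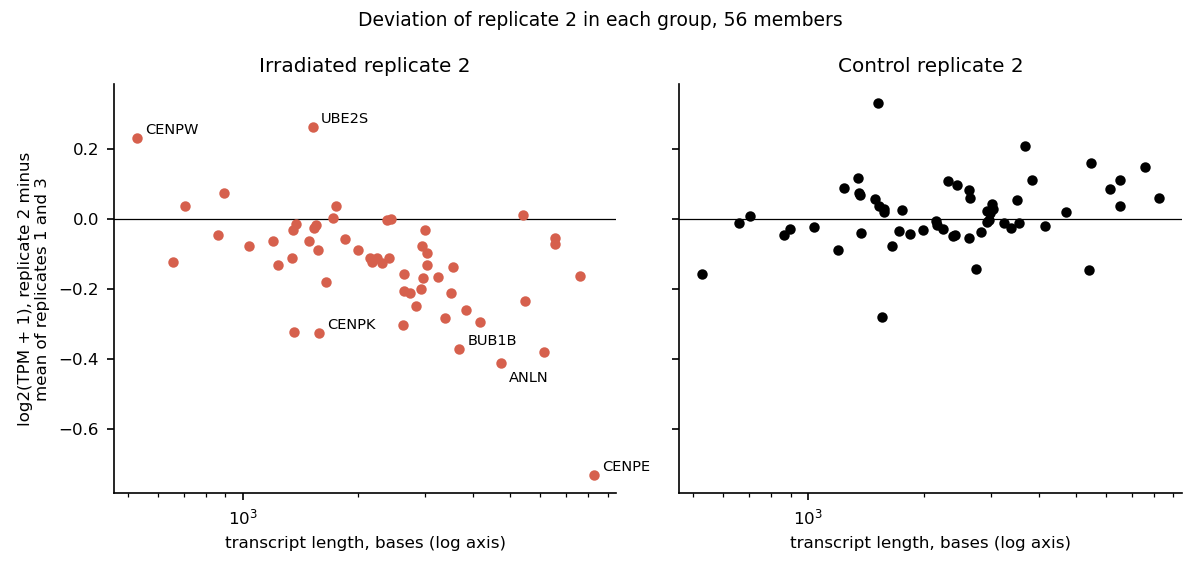
Deviation of replicate 2 from the mean of replicates 1 and 3 on the log2(TPM + 1) scale, for each of the 56 members (points), against transcript length in bases on a log axis, in the irradiated (left) and the control group (right). In the irradiated group 49 points lie below 0 and CENPE lies lowest; the control points scatter on both sides of 0.

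After irradiation the changes in these genes were small and went in both directions. Of the 56 members, 7 fell (CDC20, CDCA8, PRC1, DLGAP5, PTTG1, CKAP5 and BIRC5) and 3 rose (HMMR, NUSAP1 and UBE2C) with an adjusted p below 0.05 in limma, fitted to log2(TPM + 1) with Benjamini-Hochberg adjustment over the 14621 genes. The falls were 12.5% of the members, where 4.07% of all tested genes fell, and the rises were 5.36%, where 6.53% of all tested genes rose. In either direction 17.9% of members were called, beside 10.6% of all tested genes. When irradiated replicate 2 was left out, 2 of the 56 members rose and 5 fell, where 6.1% of all tested genes rose and 3.41% fell. No member changed by more than 0.43 on the log2 scale, and all had clear expression, with means over the 6 libraries from 10.5 to 531 TPM. In bulk RNA, fewer cells in mitosis and less of a transcript per cell cannot be told apart.

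The median log2 change of the 56 was -0.06, with 35 below 0, and that of all tested genes was 0.03. Without irradiated replicate 2 the members' median was 0.01. After median-ratio scaling the medians were -0.09 and 0.00, with 1 member called higher and 12 lower, where 5.32% of all tested genes were called higher and 5.83% lower. After removal of GC and transcript length trends 3 members were called higher and 16 lower, where the fit called 6.33% of all tested genes higher and 9.36% lower. The 3 irradiated values all lay below the 3 control values for 19 members, 33.9%, where 14.5% of all tested genes showed this. They all lay above for 5 members, 8.93%, where 20.4% of all tested genes did. With irradiated replicate 2 left out, and so fewer values to separate, these counts were 20 (35.7%, beside 16.6% of all tested genes) and 11 (19.6%, beside 32.0%). In the plot of changes by role, the farthest called falls are CDC20 at anaphase onset and CDCA8 in the chromosomal passenger complex, and the farthest called rises are the spindle genes HMMR and NUSAP1.

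**Figure D2:**
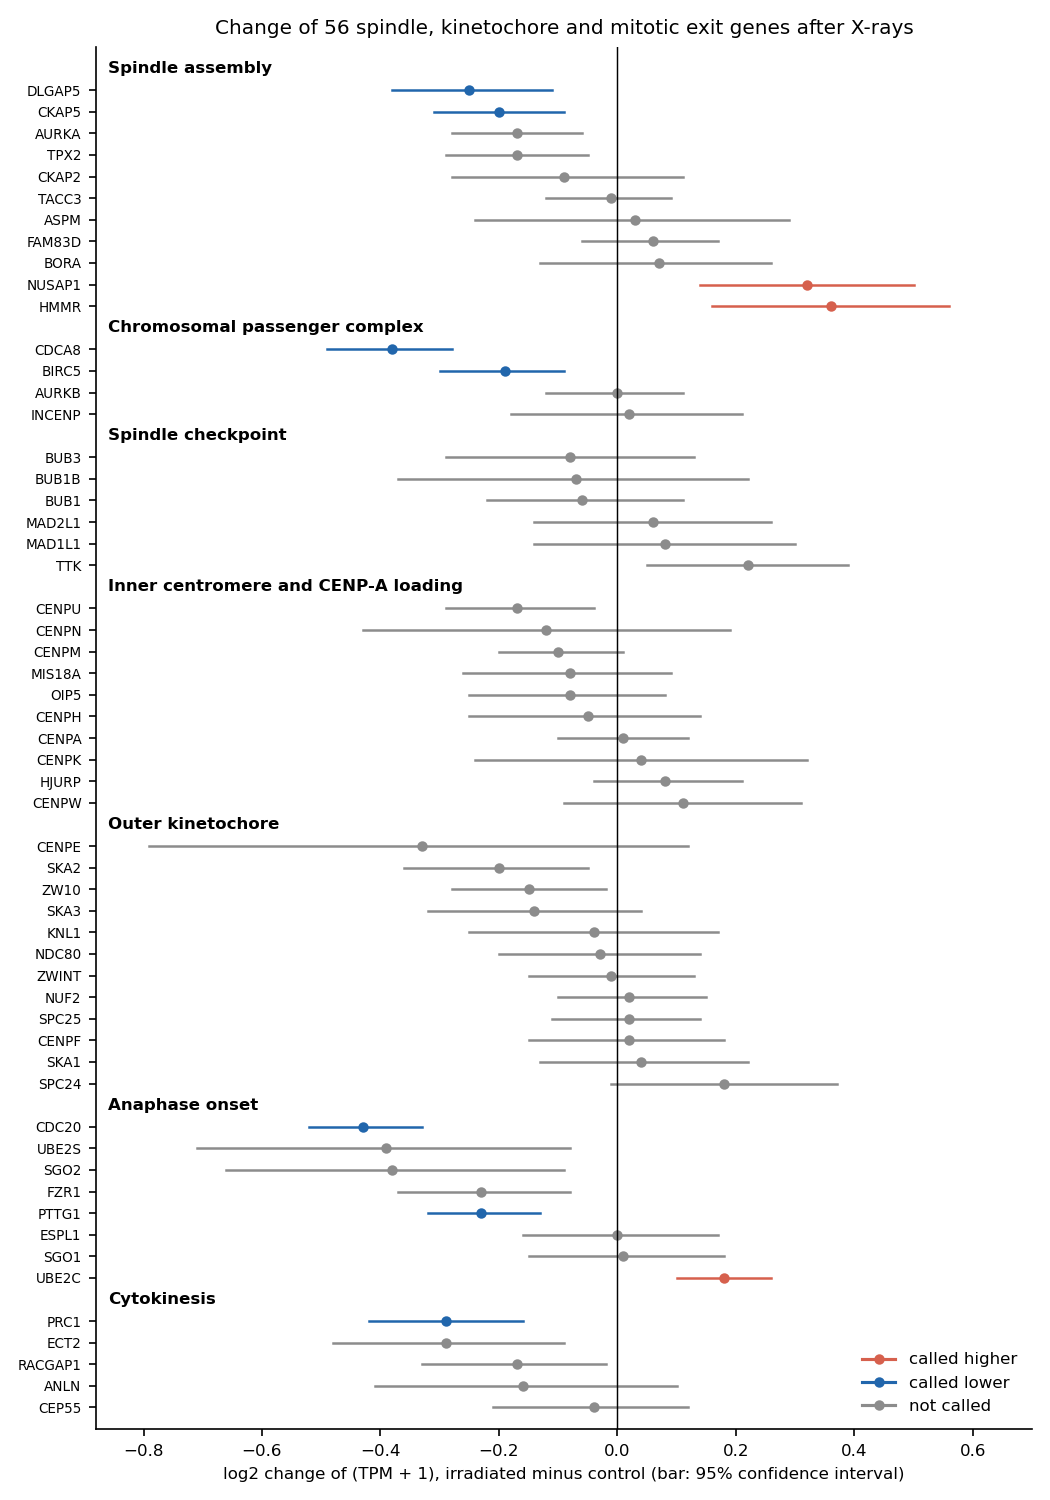
Change of each of the 56 members after irradiation, as the fitted difference of log2(TPM + 1) with its 95% confidence interval (not adjusted for the number of genes), ordered by change within 7 roles. CDC20 and CDCA8 lie farthest below 0 among the 7 called lower, HMMR and NUSAP1 farthest above 0 among the 3 called higher, and the 28 checkpoint, centromere and kinetochore genes have no call.

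The 30 bases around the cell cycle homology region (CHR), the short promoter element through which MuvB complexes bind mitotic genes, are shown for the called members with a matched promoter, because genes that rose and genes that fell held the same element. Each stretch is from RefSeq (GRCh38.p14, the same assembly as hg38), 5′ to 3′ on the gene's own strand, and centres on the CHR core nearest to the transcription start among those with 12 or more bases left before it. Capitals mark the CHR core (TTTGAA or TTTAAA, on either strand, where TTTAAA reads the same on both) and any CCAAT box (CCAAT on either strand, the site of NF-Y). The first 2 genes rose and the other 6 fell.
HMMR: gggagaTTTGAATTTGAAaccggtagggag
NUSAP1: cggcattcttcaTTTAAActgtctataaat
CDC20: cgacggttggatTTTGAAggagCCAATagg
CDCA8: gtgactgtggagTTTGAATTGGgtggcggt
PRC1: cccgtggcgcggTTTGAAattttgcggggc
DLGAP5: cctttcaatcaaTTCAAAtatcgcacggag
PTTG1: cgcgagttgtggTTTAAAccaggagtgcgc
CKAP5: gcccacaggcctTTCAAAtggaCCAATaaa
The cores began 22, 40, 65, 23, 20, 109, 29 and 73 bases before the start of the RefSeq promoter entry, in that order. For every gene shown, that start lies downstream of the GENCODE gene start given below (the higher position for minus-strand genes). The HMMR, NUSAP1, CDCA8 and PRC1 stretches lie wholly inside the GENCODE gene, and those of DLGAP5 and PTTG1 partly inside it. The longer CDC20 stretch printed next ends at the GENCODE start, so distances to its end are shorter. HMMR carried a tandem pair of cores, and in CDCA8 the core and a CCAAT box overlapped.

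For CDC20, the member with the largest fall, the 224 bases before its first annotated exon (chr1:43358731-43358954, plus strand, 63.8% GC) show how the elements are spaced, with CHR cores and CCAAT boxes in capitals.
CDC20: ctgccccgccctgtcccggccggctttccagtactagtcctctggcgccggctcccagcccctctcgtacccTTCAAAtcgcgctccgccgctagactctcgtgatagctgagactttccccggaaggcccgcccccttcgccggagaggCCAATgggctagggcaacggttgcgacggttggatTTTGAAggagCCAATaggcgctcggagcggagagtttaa
Over the window from 250 bases before to 50 after the start, a promoter was matched by symbol for 44 of the 56 members, and 31 of these held a CHR core (70.5%), beside 24.3% of all 27305 promoters in the table and 15.4% of those of tested genes. A CCAAT box was found in 33 members (75.0%, beside 35.7% and 36.9%), and both elements in 23 (52.3%, beside 9.49% and 6.36%). All 8 matched members that were called held both, the 2 that rose and the 6 that fell, as did 15 of the 36 matched members that were not called. These are matches of letters, given as a description of the sequences.

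Spindle assembly genes gave calls in both directions. Of 11 members, HMMR and NUSAP1 rose, CKAP5 and DLGAP5 fell, and 7 were not called (median log2 change -0.01). Without irradiated replicate 2 only HMMR of the 4 kept its call. HMMR, which encodes a hyaluronan receptor that also organises spindle poles (chromosome 5, 163460203 to 163491945), had 20.4, 19.0 and 17.9 TPM in the control libraries and 26.4, 22.4 and 25.4 TPM in the irradiated ones. Every irradiated value was above every control value (log2 change 0.36 ± 0.08 SE, adjusted p = 0.0402). NUSAP1, which bundles spindle microtubules near chromatin (chromosome 15, 41332694 to 41381050), had 131, 135 and 144 TPM in the control libraries and 191, 162 and 160.1 TPM in the irradiated ones. The groups did not overlap, and irradiated replicate 1 stood highest (log2 change 0.32 ± 0.08 SE, adjusted p = 0.0410).

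CKAP5, the microtubule polymerase also called ch-TOG (chromosome 11, 46743048 to 46846308), had 82.3, 82.8 and 79.0 TPM in the control libraries and 72.8, 68.8 and 70.2 TPM in the irradiated ones. All irradiated values were lower, by about the same step (log2 change -0.20 ± 0.05 SE, adjusted p = 0.0360). DLGAP5, which encodes the kinetochore fibre protein HURP (chromosome 14, 55148112 to 55191678), had 109.9, 107 and 104 TPM in the control libraries and 95.3, 83.2 and 91.8 TPM in the irradiated ones. It too had no overlap (log2 change -0.25 ± 0.06 SE, adjusted p = 0.0434). AURKA, the spindle pole kinase and the most abundant gene of this role, had 179, 177 and 176 TPM in the control libraries and 158, 149 and 164 TPM in the irradiated ones. The groups did not overlap, and the difference missed the threshold (log2 change -0.17 ± 0.05 SE, adjusted p = 0.0551). TPX2, the protein that activates Aurora A on microtubules, was not called either, at 167 ± 5.03 against 148 ± 8.15 TPM (log2 change -0.17, adjusted p = 0.0778). Such pairs of values are control and irradiated means with their SD over 3 libraries each.

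The other Aurora A partners gave no call. TACC3, which recruits CKAP5 to the spindle, was 74.9 ± 1.04 against 74.2 ± 2.05 TPM, with a 95% interval of the log2 change of -0.12 to 0.09. BORA, the cofactor through which Aurora A activates PLK1, was the least abundant member at 10.3 ± 0.549 against 10.8 ± 0.441 TPM (interval -0.13 to 0.26). FAM83D, which brings casein kinase to the spindle, was 95.4 ± 1.79 against 99.3 ± 4.37 TPM (interval -0.06 to 0.17). The CKAP5 interval, -0.31 to -0.09, overlapped those of TACC3 and BORA and not that of FAM83D. Differences between genes were not tested. ASPM, the pole-focusing microcephaly protein, and CKAP2, a spindle stabiliser, had 1 low value each, in irradiated replicate 2. ASPM had 19.6, 20.7 and 19.3 TPM in the control libraries and 23.0, 16.8 and 21.3 TPM in the irradiated ones. For CKAP2 the values were 51.7, 49.8 and 49.7 TPM in the control libraries and 50.6, 41.4 and 50.6 TPM in the irradiated ones. Neither was called, and without that library their log2 changes were 0.15 and 0.01.

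In the chromosomal passenger complex, which corrects faulty attachments at the centromere, 2 of 4 subunit genes fell and none rose. CDCA8, which encodes borealin (chromosome 1, 37692418 to 37709719), had 68.3, 65.4 and 67.0 TPM in the control libraries and 50.6, 51.1 and 51.7 TPM in the irradiated ones. The irradiated values were tight, with an SD of 0.528 TPM, and lay well under the controls (log2 change -0.38 ± 0.04 SE, adjusted p = 0.00640). BIRC5, which encodes survivin (chromosome 17, 78214186 to 78225636), had 102, 109.9 and 104 TPM in the control libraries and 91.6, 91.9 and 92.3 TPM in the irradiated ones, also without overlap (log2 change -0.19 ± 0.05 SE, adjusted p = 0.0401). The kinase and the scaffold of the same complex gave no call. AURKB had 158, 144 and 149 TPM in the control libraries and 153, 145 and 151 TPM in the irradiated ones, with overlapping groups (interval -0.12 to 0.11), and INCENP was 45.9 ± 2.15 against 46.6 ± 4.82 TPM (interval -0.18 to 0.21). The AURKB interval lies above that of CDCA8 (-0.49 to -0.28), and the difference between these genes was not tested. Summed over the 4 genes, the level was 364 to 373 TPM in the controls and 329 to 345 TPM after irradiation.

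**Figure D3:**
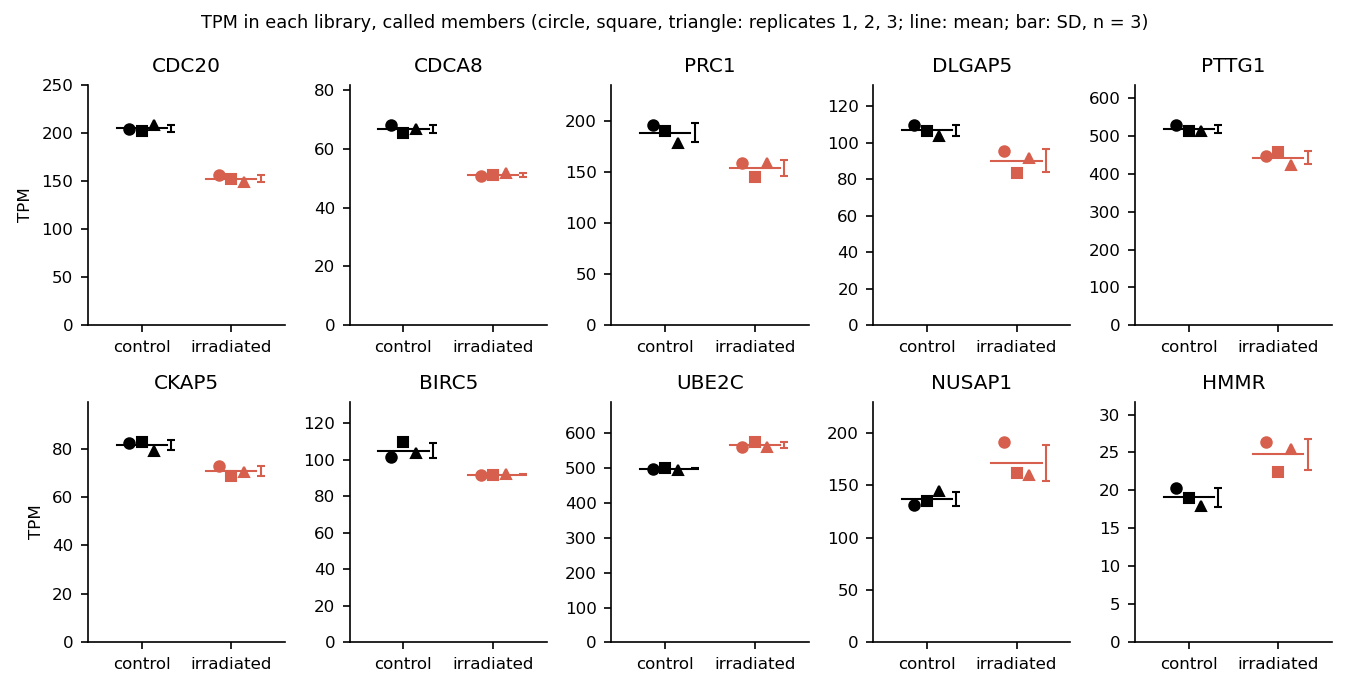
TPM of the 10 called members in each library, with replicates 1, 2 and 3 as circle, square and triangle, the group mean as a line and the SD (n = 3) as a bar; every axis starts at 0. The 7 falls and 3 rises have no overlap between groups, and the spread of the irradiated values is widest, relative to the change, in NUSAP1.

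Spindle checkpoint genes gave no call in either direction (0 of 6, median log2 change 0.00, or 0.09 without irradiated replicate 2). In limma, 1 of the 6, TTK, had an unadjusted p under 0.05. Here and below, counts at an unadjusted p have no share of all tested genes beside them. TTK, the MPS1 kinase that starts checkpoint signalling, had 37.2, 35.8 and 35.0 TPM in the control libraries and 46.2, 38.9 and 41.5 TPM in the irradiated ones. The groups did not overlap, yet the change missed the threshold (log2 change 0.22 ± 0.07 SE, adjusted p = 0.0980), and it passed only after the GC and length correction. BUB3, the adaptor and the most abundant gene of this role, had 253, 266 and 254 TPM in the control libraries and 252, 209 and 272 TPM in the irradiated ones, where irradiated replicate 2 was the lowest of the 6 and replicate 3 the highest (log2 change -0.08, adjusted p = 0.594, and log2 change 0.02 without replicate 2). The kinase BUB1 was 76.6 ± 2.10 against 73.7 ± 6.75 TPM (interval -0.22 to 0.11), and BUB1B, which encodes the checkpoint effector BUBR1, was 53.1 ± 5.02 against 50.7 ± 8.56 TPM (interval -0.37 to 0.22). MAD2L1, which encodes the MAD2 inhibitor of CDC20, was 49.0 ± 3.37 against 51.2 ± 5.11 TPM (interval -0.14 to 0.26). Its binding platform MAD1L1 was 35.6 ± 2.89 against 37.7 ± 4.19 TPM (interval -0.14 to 0.30).

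The inner centromere and CENP-A loading genes also had no call in limma (0 of 10, median log2 change -0.07, or -0.03 without irradiated replicate 2), and 1, CENPU, had an unadjusted p under 0.05. Their changes ran from -0.17 to 0.11. CENPA, the centromeric histone H3 variant, was almost level at 66.1 ± 2.30 against 66.5 ± 1.41 TPM (interval -0.10 to 0.12), and its chaperone HJURP was 74.0 ± 2.83 against 78.5 ± 3.11 TPM (interval -0.04 to 0.21). MIS18A and OIP5, subunits of the complex that licenses new CENP-A, were 18.8 ± 1.15 against 17.7 ± 0.775 TPM and 33.4 ± 1.33 against 31.5 ± 2.40 TPM. Neither was called, and their groups overlapped. CENPM, the most abundant gene of this role, had 92.4, 91.9 and 97.6 TPM in the control libraries and 88.2, 86.0 and 89.5 TPM in the irradiated ones, without overlap but with a small step (log2 change -0.10, adjusted p = 0.218). CENPU, another subunit of the constitutive centromere network and the 1 member that is also an S phase marker, had 96.7, 90.3 and 88.1 TPM in the control libraries and 84.0, 78.2 and 82.4 TPM in the irradiated ones. That step was larger and the groups were again separate (log2 change -0.17, adjusted p = 0.0905).

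The remaining subunits of that network overlapped between groups. CENPH was 13.5 ± 0.875 against 13.0 ± 0.66 TPM and CENPK was 37.2 ± 2.64 against 38.6 ± 6.57 TPM. CENPW was 74.8 ± 6.39 against 80.8 ± 7.83 TPM, the highest change of this role (log2 0.11, or 0.03 without irradiated replicate 2). CENPN, the reader of CENP-A nucleosomes, was 73.3 ± 12.9 against 67.1 ± 7.99 TPM, and its control spread was the widest of the 10, set by 87.9 TPM in control replicate 3. Exons of CENPN overlap those of CMC2 and exons of CENPU those of PRIMPOL, and without a stated strand setting reads of such overlapping genes cannot be told apart.

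In the outer kinetochore, which touches the microtubules, none of 12 genes was called by limma (median log2 change -0.02), and 2, ZW10 and SKA2, had an unadjusted p under 0.05. The NDC80 complex, the main microtubule coupler, was close to level in 3 of its 4 subunits. NDC80 was 46.2 ± 3.59 against 45.2 ± 2.27 TPM (interval -0.20 to 0.14), NUF2 was 46.5 ± 1.71 against 47.3 ± 1.36 TPM (interval -0.10 to 0.15), and SPC25 was 36.6 ± 1.18 against 37.0 ± 0.878 TPM (interval -0.11 to 0.14). SPC24 had 26.1, 29.4 and 28.4 TPM in the control libraries and 30.5, 29.9 and 35.1 TPM in the irradiated ones, higher without overlap but not called (log2 change 0.18, adjusted p = 0.198). The scaffold KNL1 was 16.3 ± 1.13 against 15.8 ± 1.30 TPM (interval -0.25 to 0.17). ZWINT, its partner and the most abundant gene of this role, had 230.1, 217 and 227 TPM in the control libraries and 232, 205 and 233 TPM in the irradiated ones, with overlap (log2 change -0.01, adjusted p = 0.938).

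ZW10, a subunit of the complex that brings dynein to kinetochores, had 32.2, 32.5 and 31.9 TPM in the control libraries and 30.2, 28.5 and 28.1 TPM in the irradiated ones. The groups were separate and the step was small (log2 change -0.15, adjusted p = 0.134). Of the SKA complex, which stabilises attachments, SKA2 had 184, 179 and 176 TPM in the control libraries and 173, 147 and 149 TPM in the irradiated ones (log2 change -0.20, adjusted p = 0.0935). SKA3 was 50.4 ± 1.09 against 45.7 ± 4.54 TPM (log2 change -0.14, adjusted p = 0.276), with a log2 change of -0.06 without irradiated replicate 2. SKA1 was 16.7 ± 0.548 against 17.2 ± 1.18 TPM (log2 change 0.04, adjusted p = 0.750). The groups were separate for SKA2 and SKA3 and overlapped for SKA1. The kinetochore motor CENPE had 15.2, 16.3 and 16.0 TPM in the control libraries and 14.8, 8.53 and 14.9 TPM in the irradiated ones. Irradiated replicate 2 lay far below the rest, so the fitted change of -0.33 had an interval of -0.79 to 0.12 and was -0.09 without that library. CENPF, its large partner at the fibrous corona, was 59.8 ± 4.15 against 60.4 ± 3.82 TPM (interval -0.15 to 0.18).

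Genes of anaphase onset had the lowest median of the 7 roles (log2 change -0.23). Of 8, CDC20 and PTTG1 fell, UBE2C rose and 5 were not called. CDC20, the mitotic activator of the anaphase-promoting complex (chromosome 1, 43358955 to 43363203), had 205, 202 and 209 TPM in the control libraries and 156, 153 and 149 TPM in the irradiated ones. The mean fell by 25.6%, with no overlap (log2 change -0.43 ± 0.04 SE, adjusted p = 0.00328). PTTG1, which encodes securin, the inhibitor of separase (chromosome 5, 160421822 to 160428744), had 531, 513 and 514 TPM in the control libraries and 447, 459 and 425 TPM in the irradiated ones. It fell without overlap (log2 change -0.23 ± 0.04 SE, adjusted p = 0.0189). UBE2C, the ubiquitin-conjugating enzyme that starts chains for that complex (chromosome 20, 45812576 to 45816957), had 498, 499.9 and 495 TPM in the control libraries and 559, 574 and 559 TPM in the irradiated ones. Both groups were tight, and all irradiated values were higher (log2 change 0.18 ± 0.03 SE, adjusted p = 0.0189).

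UBE2S, which extends the chains that UBE2C begins, was lower on average but scattered. It had 318, 451 and 404 TPM in the control libraries and 263, 332 and 291 TPM in the irradiated ones, and irradiated replicate 2 lay above control replicate 1 (log2 change -0.39 ± 0.13 SE, adjusted p = 0.106). FZR1, the CDH1 activator of late mitosis and G1, had 36.5, 40.0 and 40.4 TPM in the control libraries and 33.0, 32.2 and 34.3 TPM in the irradiated ones, separate but above the threshold (log2 change -0.23, adjusted p = 0.0593). SGO2, a shugoshin that protects centromeric cohesin, had 18.4, 17.4 and 14.7 TPM in the control libraries and 13.9, 10.9 and 13.4 TPM in the irradiated ones, also separate and not called (log2 change -0.38, adjusted p = 0.0917). Its relative SGO1 was 31.8 ± 2.35 against 32.0 ± 1.11 TPM (interval -0.15 to 0.18), and ESPL1, which encodes separase, was 22.9 ± 1.11 against 22.9 ± 1.30 TPM (interval -0.16 to 0.17).

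Of the 5 cytokinesis genes, PRC1 fell and the other 4 were not called (median log2 change -0.17, or -0.11 without irradiated replicate 2, which was the lowest library for all 5). ECT2 was called as well without irradiated replicate 2 (adjusted p = 0.0485 in limma). PRC1, which bundles the midzone of the spindle (chromosome 15, 90966038 to 90995629), had 196, 191 and 178 TPM in the control libraries and 159, 145 and 159 TPM in the irradiated ones. The groups did not overlap (log2 change -0.29 ± 0.06 SE, adjusted p = 0.0243). ECT2, the exchange factor that switches on RhoA at the equator, had 93.9, 90.5 and 89.7 TPM in the control libraries and 79.0, 65.1 and 81.3 TPM in the irradiated ones. RACGAP1, its centralspindlin partner, had 119, 117 and 123 TPM in the control libraries and 109, 96.3 and 113 TPM in the irradiated ones. Both were lower in every irradiated library, and neither was called (log2 change -0.29, adjusted p = 0.0731 for ECT2 and log2 change -0.17, adjusted p = 0.137 for RACGAP1). ANLN, the anillin scaffold of the contractile ring, was 169 ± 5.27 against 153 ± 24.4 TPM (log2 change -0.16, adjusted p = 0.394), and CEP55, which organises abscission, was 124 ± 9.02 against 121 ± 7.62 TPM (log2 change -0.04, adjusted p = 0.733). The 5 genes summed to 669 to 714 TPM in the controls and to 644, 544 and 641 TPM in irradiated replicates 1, 2 and 3. Without irradiated replicate 2 the log2 changes were -0.24 for PRC1, -0.19 for ECT2, -0.11 for RACGAP1, -0.02 for ANLN and 0.01 for CEP55.

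CDC20 and CDCA8 kept their calls in all 18 alternative fits (adjusted p at most 0.0341 and 0.0441). The other 8 called members lost theirs with eBayes without trend and when control replicate 1 or 2 or irradiated replicate 1 or 3 was left out. With no filter only UBE2C kept its call among these 8, and without control replicate 3 only PTTG1 and PRC1 did. Without irradiated replicate 2, HMMR, UBE2C, PTTG1 and PRC1 kept theirs and CKAP5, DLGAP5, NUSAP1 and BIRC5 did not. NUSAP1 and UBE2C were not called after median-ratio scaling, CKAP5 and UBE2C after the GC and length correction, and DLGAP5 with mitochondrial genes removed. None of the 10 changed direction in any of the 18 fits.

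Of 9 pairs of partner genes compared, 6 had ratios that did not overlap between the groups. No such share was computed for ratios of other genes. Of single tested genes, 20.4% had every irradiated value above the controls and 14.5% every irradiated value below. Ratios are log2 of (TPM + 1) of the first over the second gene. The ratio of UBE2C to UBE2S went from 0.36 ± 0.26 to 0.94 ± 0.15, and that of SGO1 to SGO2 from 0.88 ± 0.06 to 1.27 ± 0.16 (mean ± SD, n = 3). Both ratios were higher in every irradiated library than in any control. AURKA to AURKB went from 0.24 ± 0.05 to 0.07 ± 0.04, CDC20 to FZR1 from 2.37 ± 0.08 to 2.17 ± 0.07, and PTTG1 to ESPL1 from 4.45 ± 0.08 to 4.22 ± 0.13. These 3 ratios were lower in every irradiated library than in any control. SPC24 to SPC25 went from -0.38 ± 0.05 to -0.21 ± 0.09. Each of these 6 gave p = 0.10 in a two-sided exact permutation test (adjusted p = 0.15 over the 9 pairs), which is the smallest p that 3 against 3 libraries allow, so none can pass the threshold. BUB1 to BUB1B (p = 0.80), NDC80 to NUF2 (p = 0.20) and CENPE to CENPF (p = 0.20) overlapped in the same exact permutation test. After the GC and length correction the shift of AURKA to AURKB was -0.07 in place of -0.17.

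**Figure D4:**
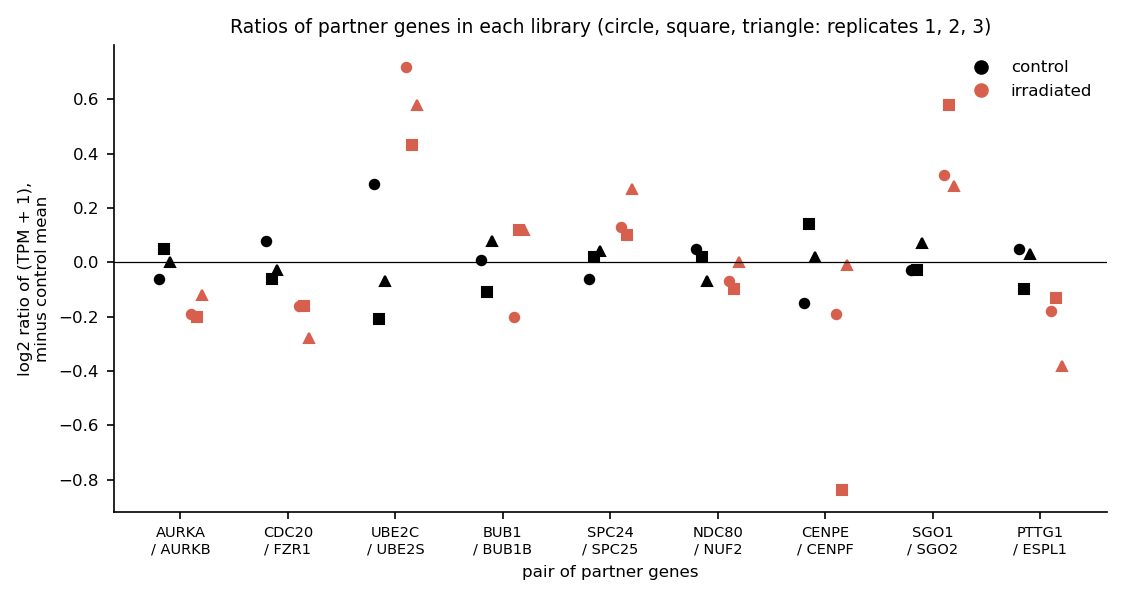
Log2 ratio of (TPM + 1) between partner genes in each library, with the control mean of each pair set to 0; black points are control and red points irradiated libraries, and circle, square and triangle are replicates 1, 2 and 3. The 2 groups are apart in 6 of the 9 pairs, most widely for UBE2C over UBE2S and SGO1 over SGO2, and the low CENPE over CENPF point is irradiated replicate 2.

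Few genes of the surrounding machinery were called. Of 15 genes of the anaphase-promoting complex itself and its inhibitor FBXO5, ANAPC2, a catalytic subunit, rose (log2 change 0.37 ± 0.08 SE, adjusted p = 0.0310) and ANAPC15, which helps release CDC20 from the checkpoint, fell (log2 change -0.29 ± 0.06 SE, adjusted p = 0.0327), with a list median of 0.06. Of 22 other kinetochore genes, CENPT, a DNA-binding arm of the kinetochore, rose (log2 change 0.27 ± 0.06 SE, adjusted p = 0.0378) and none fell. Of 25 centrosome and spindle nucleation genes none was called by limma, and 2 higher and 4 lower had an unadjusted p under 0.05. The most abundant were TUBG1, which encodes gamma-tubulin, at 145 ± 1.51 against 161 ± 4.67 TPM (log2 change 0.15, adjusted p = 0.0591), and NUMA1, a spindle pole protein gene, at 88.4 ± 4.38 against 86.5 ± 7.71 TPM (log2 change -0.03, adjusted p = 0.800). Those shares, 2 of 15, 1 of 22 and 0 of 25, stand beside 10.6% of all tested genes called. Without irradiated replicate 2, ANAPC2, ANAPC15 and CENPT were not called (adjusted p = 0.0537, 0.0560 and 0.0581 in limma), while CDC26 of the first list was lower and TUBGCP6 of the last higher.

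Genes of mitotic entry and their transcription factors gave 5 calls among 18, with a median of 0.01. Over all tested genes 6.53% were called higher and 4.07% lower. CDK1 rose, and WEE1, PLK1, CDC25A and E2F8 fell. CDK1, the kinase that drives entry, had 158, 149 and 152 TPM in the control libraries and 225, 203 and 215 TPM in the irradiated ones (log2 change 0.49 ± 0.05 SE, adjusted p = 0.00419). WEE1, the kinase that inhibits it, had 20.8, 19.2 and 19.7 TPM in the control libraries and 13.5, 14.1 and 14.0 TPM in the irradiated ones (log2 change -0.49 ± 0.07 SE, adjusted p = 0.00921). Control and irradiated values were separate for both genes. CDC25A, a phosphatase that activates cyclin-dependent kinases, also fell (log2 change -0.26 ± 0.06 SE, adjusted p = 0.0370), and so did E2F8, a repressor of E2F targets (log2 change -0.40 ± 0.09 SE, adjusted p = 0.0319). The CDK1 call held in all 18 alternatives, and without irradiated replicate 2 that of CDC25A did not (adjusted p = 0.0508 in limma). With any of the other 5 libraries left out, the list had 1 rise and 1 to 3 falls. In those fits 187 to 486 of the 14621 tested genes rose and 119 to 288 fell.

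As a wider frame, 54 commonly used G2/M marker genes, 23 of them members here, had 4 rises and 14 falls with a median of -0.06. Over all tested genes 6.53% rose and 4.07% fell. Of the 31 outside the members, 1 rose and 9 fell, among them MKI67, the Ki-67 proliferation marker (from 60.7 ± 4.42 to 40.8 ± 6.18 TPM, log2 change -0.57, adjusted p = 0.0246), LBR, the lamin B receptor gene (from 69.1 ± 7.24 to 44.5 ± 7.47 TPM, log2 change -0.63, adjusted p = 0.0273), and ANP32E, a histone chaperone gene (from 70.7 ± 4.10 to 49.2 ± 6.75 TPM, log2 change -0.52, adjusted p = 0.0214). The 43 S phase markers had no rise in limma and 16 falls, with a median of -0.24. At an unadjusted p under 0.05, which has no share of all tested genes beside it, 2 were higher and 25 lower. The largest were in MCM6 (log2 change -0.95, adjusted p = 0.00177), WDR76 (log2 change -0.81, adjusted p = 0.00614), MCM5 (log2 change -0.77, adjusted p = 0.00177) and UNG, the uracil glycosylase gene (log2 change -0.69, adjusted p = 0.00177). The lists were not tested against each other. Without irradiated replicate 2 the counts were 4 rises and 10 falls for the G2/M list and 1 rise and 16 falls for the S phase list. Of all tested genes 6.1% then rose and 3.41% fell. With any of the other 5 libraries left out, the G2/M list had 1 rise and 3 to 6 falls (3 without control replicate 1 or 2), and the S phase list no rise and 9 to 11 falls (9 without any 1 of the controls). Those fits called 187 to 486 of the 14621 tested genes higher and 119 to 288 lower.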

How the data were processed

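Libraries were made from total RNA with a TruSeq RNA kit, per the labels' protocols. Tools named in the submitters' processing notes are HISAT2, StringTie and RSEM, with hg38 as build; versions and roles are not given there. The authors deposited TPM values, 1 column per sample, with column sums from 999998.6 to 1000000.6. Read depth is unknown, and the spread between libraries is the measure of precision. Groups came from the sample titles. Libraries of a group shared at most 0.479% identical values, and all 6 were kept.

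The log2(TPM + 1) scale understates changes of low genes. The limma fit (version 3.58.1, R 4.3.3, two-sided, eBayes with trend, with 4 degrees of freedom from the residuals and 3.39 from the prior) covered 14621 genes. Its threshold was 0.05 on the Benjamini-Hochberg adjusted p. The fit was also run on simulated data, but recovery of changes as small as those of the members is not reported. Partner ratios had 20 possible assignments in their exact permutation test (SciPy 1.17.1). The members and lists were chosen with earlier results of these data known. Every called member and the most abundant of each role is given with its 6 values; of other genes, up to 4 called per list with the largest change, or the 2 most abundant where none was called. Other 6-value genes, and PLK1, CDC26 and TUBGCP6, were chosen after their values were seen.

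Positions (1-based), transcript lengths and GC content came from GENCODE 29 (GRCh38). The 18 alternative fits used a pseudocount of 0.1, a minimum of 5 TPM or none, median-ratio or quantile scaling, no mitochondrially encoded genes, protein-coding genes alone, eBayes without trend or robust, a GC and length correction (97.4% of tested genes had both), the replicate block with and without it, or left out 1 library each.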

Additional observations from a re-analysis of the deposited data

How the results depend on the processing

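The count of members called varied with the processing and with the libraries used. The 10 called members kept their direction in all 18 alternatives. Among all 56, 26 in place of 35 had a change below 0 without irradiated replicate 2. Against 3 called higher and 7 called lower, median-ratio scaling gave 1 and 12, the GC and length correction 3 and 16, no filter 1 and 2, and eBayes without trend 0 and 2. The replicate block gave 0 and 3, and with the GC and length correction 1 and 11. Deviations of same-numbered libraries from their group means correlated at 0.03, -0.06 and -0.03 across tested genes. Such values cannot decide whether same-numbered libraries shared a culture or batch, which the labels do not say. With the block alone the members called were CDC20, CDCA8 and UBE2S, and the call of WEE1 was lost (adjusted p = 0.0504 in limma). The G2/M and S phase lists then had 3 and 8 falls. With 1 library left out, 0 to 2 members were called higher and 2 to 5 lower, and the members' median log2 change ran from -0.09 to 0.01, the last without irradiated replicate 2. Over all tested genes the block gave 210 higher and 152 lower calls in place of 955 and 595, eBayes without trend 719 and 274, no filter 292 and 205, median-ratio scaling 778 and 852, and the GC and length correction 902 and 1333. Leaving out 1 library gave 187 (without control replicate 2) to 892 (without irradiated replicate 2) higher calls and 119 to 498 lower ones. The cause of these differences was not tested, except that fits on fewer libraries or with a block have fewer degrees of freedom. Of the 46 members not called, 35 were called in none of the 18 alternatives and 11 in at least 1. In the shorter promoter window, from 100 bases before to 50 after the start, 27 of the 44 matched members held a CHR core (61.4%). This stands beside 11.3% of all promoters and 6.11% of those of tested genes. A CCAAT box was held by 26 (59.1%, beside 22.0% and 24.0%), and both by 17 (38.6%, beside 2.78% and 1.8%). The read depth behind the TPM values is unknown, so no counting interval can be given. The 95% intervals are not adjusted for the number of genes and do not mark a limit of detection. They excluded 0 for 21 members, of which 10 were called, and no such share of all tested genes is given. With 3 libraries per group small changes can be missed, so the lack of a call does not show that a gene was level.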

Other observations

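NUSAP1 and OIP5 are neighbours on chromosome 15, on opposite strands, with 72 bases between their annotated genes, and were the closest pair among the members. NUSAP1 was called higher and OIP5 was not called. Their log2 ratio of (TPM + 1) was 1.95, 1.92 and 2.13 in control replicates 1, 2 and 3 and 2.60, 2.42 and 2.20 in the irradiated ones, without overlap. OIP5 shares exon sequence with the antisense gene OIP5-AS1, at a mean of 11.1 TPM, and the pair was chosen after its values were seen.

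Pseudogene copies of the members carried little signal. Of those matched by name, SKA2P1 was highest, at 0 to 8.65 TPM, with a mean of 3.98 TPM in the controls and 0.863 TPM after irradiation, beside 179.8 and 156 TPM for SKA2. The named copies of AURKA, UBE2C and UBE2S did not exceed 0.80 TPM.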
